A study of Macaca mulatta with 13 samples.

Results

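TLE corepressors and HES/Notch regulators were followed in blood mononuclear cells of infant rhesus macaques raised under different conditions. The 9 genes considered were the corepressor genes TLE1, TLE3 and TLE4, the HES repressor genes HES1, HES4 and HES6, the receptor genes NOTCH1 and NOTCH2, and RBPJ, the DNA-binding factor of the pathway. They were chosen with values of these arrays already known, because TLE3 and HES6 stood among the genes with the smallest p in the comparisons of peer and of surrogate-peer animals with maternal animals. Every probe set that the platform annotation pairs with exactly 1 of these symbols was taken, which gave 18 of the 52707 probe sets that are not controls, for 7 of the 14132 gene symbols paired alone with a probe set. TLE3 had 4 of them, TLE1 3, NOTCH2 5, RBPJ 3, and HES1, HES4 and HES6 1 each. TLE4 and NOTCH1 had 0 probe sets under their symbols and were not analysed here.

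The animals were 4 peer reared, 4 surrogate-peer reared and 5 maternally reared macaques, all 4 months old. Each contributed 1 Affymetrix rhesus genome array made from total RNA of peripheral blood mononuclear cells, the lymphocytes and monocytes of the blood, and the study asked whether expression differs with early rearing. Values are on the log2 scale of robust multi-array average (RMA), in which 1 unit is a doubling. No label names the sex, litter or blood-drawing or scanning day of an animal, and the number that ends each sample title is not explained. The p-values therefore measure the spread between these animals, and a batch that coincides with rearing cannot be told apart from it.

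In Notch signalling a receptor on one cell is bound by a Jagged or Delta ligand on its neighbour, is cleaved, and releases an intracellular part that enters the nucleus. There it joins RBPJ and a Mastermind coactivator and switches on target genes, among them HES1. HES proteins are repressors that recruit TLE proteins, the mammalian relatives of fly Groucho, and TLE proteins in turn bring histone deacetylases to DNA. TLE proteins bind no DNA themselves and also serve RUNX, TCF and PRDM1 factors. In blood, Notch signalling is best known for committing progenitors to the T cell lineage, and NOTCH2 for the marginal zone B cells of the mouse.

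The arrays carried markers of mononuclear cells and of other blood cells, at unequal levels. CD14 averaged 11.38 and S100A8 13.53 on the log2 scale for monocytes, MS4A1 11.66 for B cells, CD5 10.15 for T cells and GZMB 11.78 for cytotoxic cells, while the platelet gene PF4 averaged 13.31. Other genes of these lists were dimmer, with MS4A7 at 7.19, CD79A at 7.14, KLRF1 at 7.39, CD6 at 6.87, CD28 at 6.60 and BCL11B at 6.30. Of the neutrophil genes CAMP averaged 12.18, MPO 6.23 and ELANE 5.80, and of the erythroid genes HBB averaged 11.47 and ALAS2 8.41. The T cell list was represented by 4 of its 8 genes, and CD3D, CD3E and CD3G were not analysed here. Array medians over all probe sets ran from 5.995 to 6.043 in peer and surrogate-peer arrays and from 6.048 to 6.060 in maternal arrays. Over the brighter probe sets that were tested, as described below, the order was reversed. Those medians were 7.73 to 7.76 in peer and surrogate-peer arrays and 7.65 to 7.71 in maternal arrays. Where arrays were centred below, these medians of tested probe sets were used. The SD of all values of an array was 2.13 to 2.16 in peer and surrogate-peer arrays, against 2.10 to 2.12 in maternal arrays. The log2 ratio of 3' to 5' signal of the actin and GAPDH controls, a sign of RNA quality, was 1.40 to 1.74 in peer, 1.33 to 1.46 in surrogate-peer and 1.55 to 2.23 in maternal arrays. Maternal arrays 2 and 5 stood apart by a high monocyte marker score, 0.86 and 0.68, against -0.39 to 0.06 in peer, -0.57 to 0.42 in surrogate-peer and -0.41 to 0.07 in the other maternal arrays. A marker score is the mean, over the measured genes of a list, of the log2 value minus the gene's mean over the 13 arrays. Genes of a list did not always move as one between the averaged peer and surrogate-peer means and maternal. Among monocyte genes LYZ had 0.60 and FCN1 0.42, while the others were negative, down to -1.48 for MS4A7. Among dendritic cell genes CD1C had -0.53, while FCER1A had 1.91, FLT3 0.40 and the dim CLEC9A 0.30. Scores of other cells also differed: the cytotoxic score was -0.78 to 0.23 in peer, -0.97 to 0.58 in surrogate-peer and -0.24 to 1.21 in maternal arrays, and the B cell score was -0.35 to 0.53, -1.16 to -0.20 and 0.03 to 0.95 in the same order. Since RNA came from a mixture, fewer cells of a type and less RNA per cell cannot be told apart for any gene below.

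Of the 18 probe sets, 16 had a mean above the median of all means, 6.04, and entered the fit of limma across 26352 probe sets. The other probe sets lay near the bottom of the scale. TLE1 probe set MmugDNA.16741.1.S1_at ranged from 4.40 to 4.76 in peer, from 4.40 to 4.77 in surrogate-peer and from 4.60 to 4.81 in maternal arrays. NOTCH2 probe set MmuSTS.1970.1.S1_at ranged from 4.17 to 4.49 in peer, from 4.10 to 4.60 in surrogate-peer and from 4.23 to 4.32 in maternal arrays. Levels of probe sets served to filter them and to name the brighter and dimmer ones. Amounts of RNA were not compared between probe sets, since probes differ in brightness.

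TLE3, a corepressor of the Groucho family, was lower in peer and surrogate-peer than in maternal animals at all 4 probe sets, by unequal amounts. At MmugDNA.20927.1.S1_at the values were 7.44, 7.30, 7.40 and 7.47 in peer arrays and 7.36, 7.18, 7.08 and 7.13 in surrogate-peer arrays. The 5 maternal arrays read 7.70, 7.99, 8.11, 7.95 and 8.36, so that every peer and surrogate-peer value lay below every maternal value. Means were 7.40 ± 0.07 in peer (SD, n = 4), 7.19 ± 0.12 in surrogate-peer (SD, n = 4) and 8.02 ± 0.24 in maternal animals (SD, n = 5). The log2 difference from maternal was -0.62 ± 0.11 (SE) in peer and -0.84 ± 0.11 in surrogate-peer animals, 0.651 and 0.560 times the maternal level. This probe set and HES6 chose the group, so these differences are descriptions and carry no test.

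The other TLE3 probe sets had smaller differences in the same direction. MmugDNA.1429.1.S1_at read 8.29, 8.26, 8.40 and 8.33 in peer, 8.44, 8.18, 8.14 and 8.11 in surrogate-peer, and 8.46, 8.52, 8.84, 8.78 and 8.67 in maternal arrays. Its groups did not overlap either, although surrogate-peer array 1 and maternal array 1 were only 0.02 apart. Its difference from maternal was -0.33 ± 0.10 in peer and -0.44 ± 0.10 in surrogate-peer animals. At the brightest probe set, MmugDNA.20928.1.S1_at, the means were 9.25 ± 0.12, 9.21 ± 0.15 and 9.40 ± 0.18 in peer, surrogate-peer and maternal animals, and the groups overlapped. There the differences were -0.14 ± 0.11 in peer and -0.18 ± 0.11 in surrogate-peer animals. At the dimmest, MmugDNA.36605.1.S1_at, they were -0.16 ± 0.08 and -0.21 ± 0.08, again with overlap.

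Within groups the 4 TLE3 probe sets did not follow one another closely. Correlations here are over the 13 arrays after each group's mean was removed, and the 16 pairs of probe sets of one gene formed a family with permutation p adjusted over it. Pearson's r between MmugDNA.20927.1.S1_at and MmugDNA.1429.1.S1_at was 0.60 (permutation p = 0.0917, adjusted p = 0.217) and Spearman's rho 0.70 (permutation p = 0.036, adjusted p = 0.115), with r 0.51 without surrogate-peer array 1 and maternal array 3. Between MmugDNA.20928.1.S1_at and MmugDNA.36605.1.S1_at r was -0.57 (permutation p = 0.095, adjusted p = 0.217). Whether the probe sets read different transcripts was not tested.

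TLE1, another corepressor of the family, had the lowest peer and surrogate-peer means relative to maternal of the members. At MmuSTS.4593.1.S1_at the arrays read 7.92, 8.13, 7.68 and 8.18 in peer and 7.33, 8.21, 7.46 and 7.84 in surrogate-peer animals. In maternal animals they read 8.11, 9.23, 8.63, 8.80 and 8.76. Maternal array 1 lay among the peer and surrogate-peer values and the other 4 maternal arrays lay above all of them. Means were 7.98 ± 0.23 in peer, 7.71 ± 0.39 in surrogate-peer and 8.71 ± 0.40 in maternal animals (SD, n = 4, 4 and 5). The difference from maternal was -0.73 ± 0.22 (SE) in peer and -0.99 ± 0.22 in surrogate-peer animals, 0.604 and 0.502 times the maternal level.

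The second TLE1 probe set, MmugDNA.36602.1.S1_at, had means of 8.07 ± 0.15 in peer, 7.86 ± 0.35 in surrogate-peer and 8.32 ± 0.25 in maternal animals. Its differences were -0.25 ± 0.16 and -0.46 ± 0.16. The 2 TLE1 probe sets went together from array to array by r, which was 0.82 (permutation p = 0.00448, adjusted p = 0.0179). By rho, 0.74, they did not pass (permutation p = 0.0133, adjusted p = 0.0533), and r was 0.85 without maternal arrays 1 and 2. Whether TLE1 and TLE3 differ in this was not tested. Surrogate-peer array 1 was lowest at both, 7.33 and 7.39, and surrogate-peer array 2 was the highest of its group at both, 8.21 and 8.21.

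**Figure D1:**
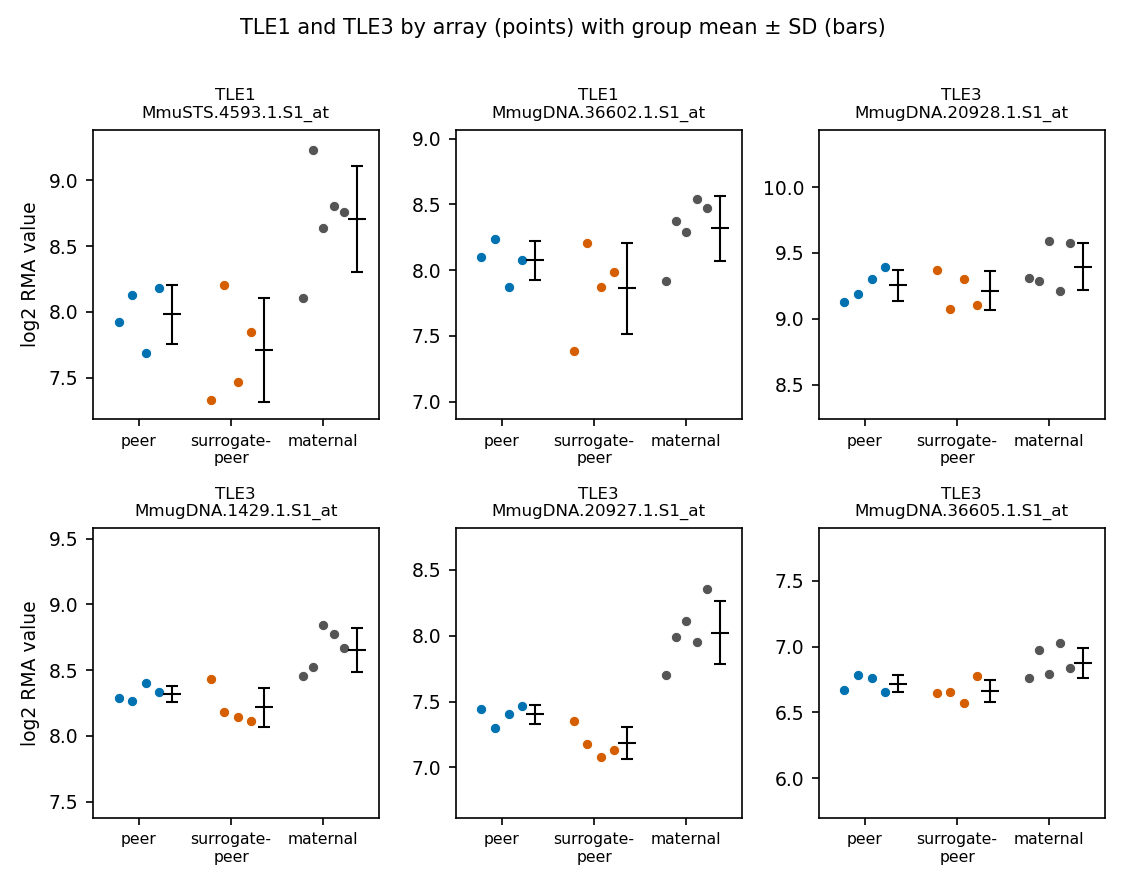
Log2 RMA values of TLE1 and TLE3 at their 6 tested probe sets, with arrays as points by group (peer, surrogate-peer, maternal) and bars for the group mean ± SD. Every panel spans the same range of log2 units. At TLE3 MmugDNA.20927.1.S1_at the 8 peer and surrogate-peer arrays lie at 7.08 to 7.47, below the 5 maternal arrays at 7.70 to 8.36.

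HES6 differs from the other HES genes in that its protein is known to oppose HES1, and it promotes neuronal differentiation in vertebrate embryos. Its single probe set, MmuSTS.12.1.S1_at, read 7.04, 7.28, 6.83 and 7.11 in peer arrays and 7.10, 6.87, 6.97 and 7.03 in surrogate-peer arrays. The maternal arrays read 7.53, 7.61, 7.54, 7.55 and 7.65. The groups were fully separated, and the maternal values were tighter than at the other 15 tested probe sets, with an SD of 0.05 (n = 5) around 7.58, against 0.19 around 7.06 in peer and 0.10 around 6.99 in surrogate-peer animals (n = 4 each). The difference from maternal was -0.51 ± 0.09 (SE) in peer and -0.58 ± 0.09 in surrogate-peer animals, 0.702 and 0.668 times the maternal level.

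HES1, the classical Notch target and repressor, was dim. MmugDNA.29901.1.S1_at read 5.74, 6.17, 6.05 and 5.94 in peer arrays, 6.42, 5.94, 6.12 and 6.23 in surrogate-peer arrays, and 6.34, 6.46, 6.38, 6.30 and 6.52 in maternal arrays. The 4 peer arrays lay below all maternal arrays, while surrogate-peer array 1 lay among them. Its difference was -0.42 ± 0.11 in peer and -0.22 ± 0.11 in surrogate-peer animals. HES4, a related repressor that rodents lack, had means of 6.66 ± 0.11 in peer, 6.71 ± 0.12 in surrogate-peer and 6.83 ± 0.16 in maternal animals, and the groups overlapped. Its differences were -0.17 ± 0.10 and -0.12 ± 0.10. HES1 lay close to the limit of 6.04 below which probe sets were not tested.

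NOTCH2, a receptor of the pathway, varied among animals within each group. At its brightest probe set, MmugDNA.15808.1.S1_s_at, arrays read 10.27, 10.11, 10.51 and 9.66 in peer, 9.89, 10.73, 10.02 and 10.27 in surrogate-peer, and 9.85, 10.36, 9.71, 10.16 and 10.47 in maternal animals. The ranges of the 3 groups overlapped over most of their length. The suffix of this probe set marks one whose probes match several transcripts. The difference from maternal was 0.03 ± 0.22 in peer and 0.12 ± 0.22 in surrogate-peer animals, with 95% intervals of -0.44 to 0.50 and -0.35 to 0.59. The other 3 tested probe sets gave -0.08 to 0.02 in peer and -0.10 to 0.09 in surrogate-peer animals. The peer difference at MmugDNA.15808.1.S1_s_at became -0.03 when arrays were centred on their medians of tested probe sets. With the 3' to 5' ratio as a covariate MmugDNA.15808.1.S1_s_at gave -0.20 in peer and -0.24 in surrogate-peer animals, and MmugDNA.2284.1.S1_at gave -0.38 and -0.62.

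The 3 bright NOTCH2 probe sets ranked the animals almost alike. The r between pairs of them was 0.91 to 0.96 and rho 0.91 to 0.93, and all 3 pairs passed (adjusted permutation p of 6.4e-04 to 0.00107 for r). The dim MmugDNA.21768.1.S1_at, at 5.95 to 6.34, did not follow them (r 0.10 to 0.29). The animal-to-animal differences in NOTCH2 ran with the monocyte marker score: for MmugDNA.15808.1.S1_s_at r was 0.81 (permutation p = 0.00222, adjusted p = 0.242) and rho 0.80 (permutation p = 0.00371, adjusted p = 0.339). Without maternal arrays 2 and 5, farthest on the score, r was 0.80. Among the 128 relations of a marker score with a member probe set, 0 passed after adjustment. The part of monocyte number in the NOTCH2 level was not tested further.

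RBPJ binds DNA in the pathway, with coactivators when the receptor has been cleaved and with corepressors when it has not. Its 3 probe sets disagreed. At MmugDNA.14460.1.S1_at the arrays read 10.45, 10.46, 10.46 and 10.24 in peer and 10.50, 10.48, 10.51 and 10.38 in surrogate-peer animals, against 10.16, 9.67, 10.02, 10.21 and 9.96 in maternal animals. Every peer and surrogate-peer value lay above every maternal value, by as little as 0.03 between peer array 4 and maternal array 4. Means were 10.40 ± 0.11, 10.47 ± 0.06 and 10.01 ± 0.21 (SD, n = 4, 4 and 5), and the differences from maternal were 0.40 ± 0.10 (SE) in peer and 0.46 ± 0.10 in surrogate-peer animals.

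The other RBPJ probe sets did not separate the groups. MmuSTS.877.1.S1_at averaged 10.69 ± 0.05 in peer, 10.81 ± 0.19 in surrogate-peer and 10.69 ± 0.21 in maternal animals. MmugDNA.17385.1.S1_at averaged 6.95 ± 0.17, 7.13 ± 0.27 and 6.77 ± 0.43, with differences of 0.18 ± 0.20 in peer and 0.35 ± 0.20 in surrogate-peer animals that became -0.17 and -0.20 with the 3' to 5' ratio as a covariate. The r between the 3 RBPJ probe sets within groups was -0.35 to 0.44. MmugDNA.14460.1.S1_at ran against the dendritic cell score (r -0.87, permutation p = 0.00378, adjusted p = 0.242; rho -0.57, permutation p = 0.055, adjusted p = 0.470), a relation that rested on maternal arrays 2 and 4, without which r was -0.49.

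**Figure D2:**
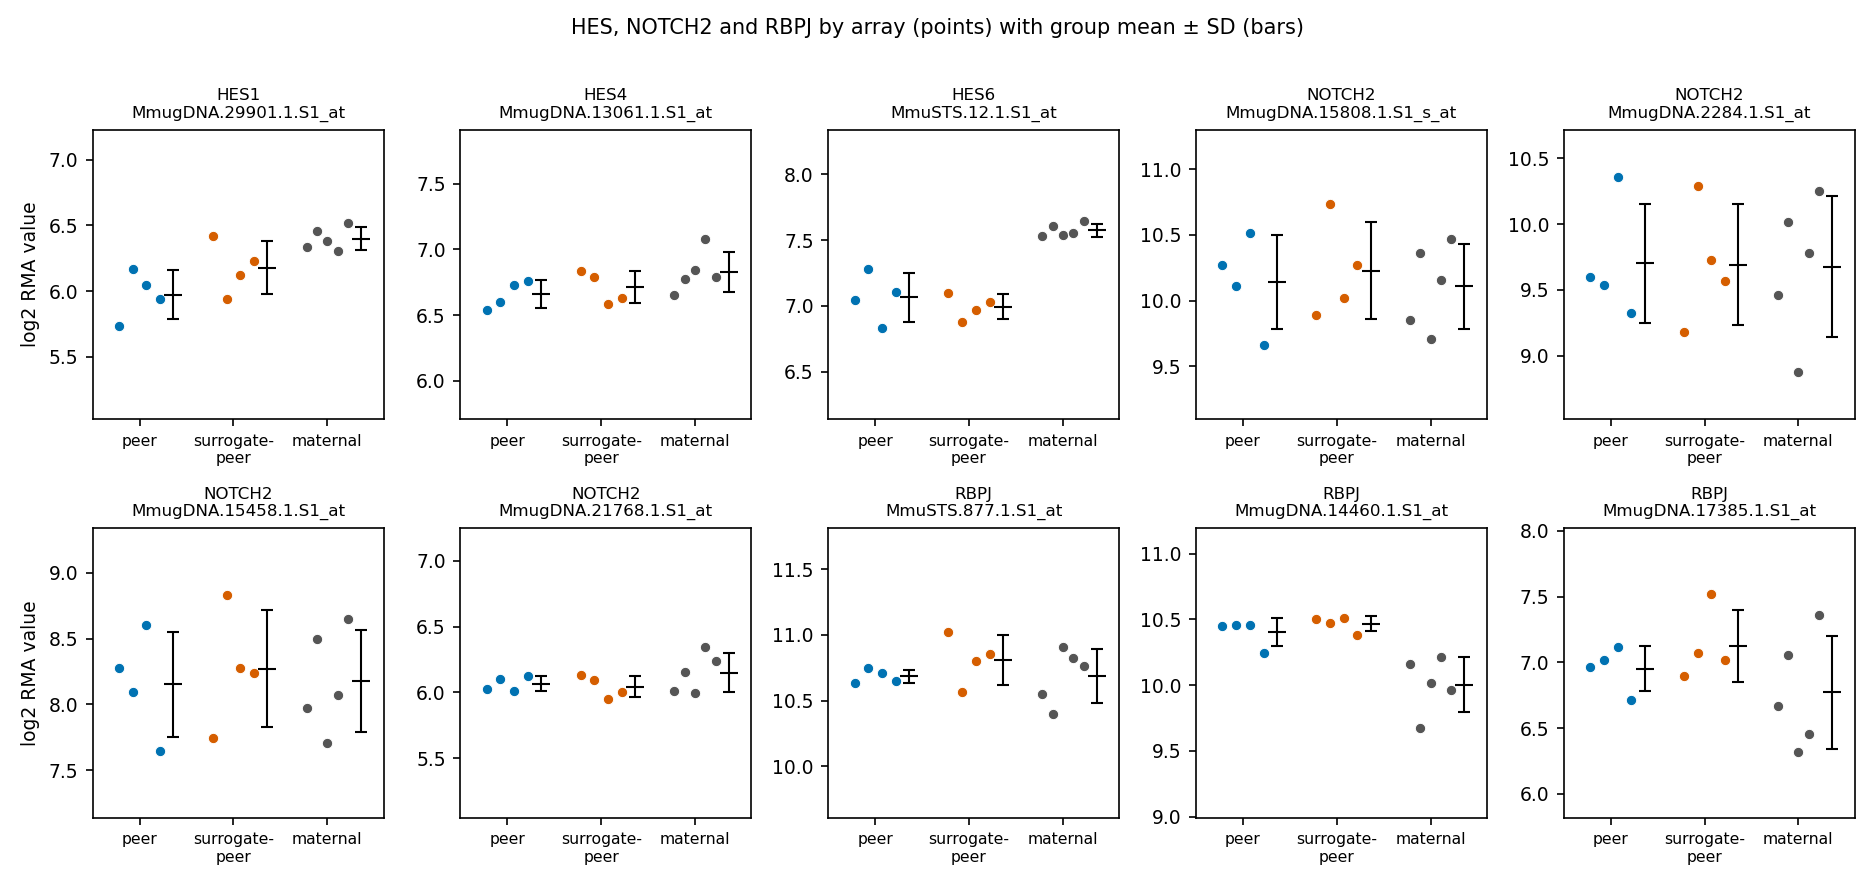
Log2 RMA values of HES1, HES4, HES6, NOTCH2 and RBPJ at their 10 tested probe sets, with arrays as points by group (peer, surrogate-peer, maternal) and bars for the group mean ± SD. Every panel spans the same range of log2 units. HES6 values are 6.83 to 7.28 in the 8 peer and surrogate-peer arrays and 7.53 to 7.65 in the maternal arrays, and the NOTCH2 groups overlap.

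Counts over the members are read beside the same counts over all tested probe sets. With the peer and surrogate-peer means averaged and set against maternal, 5 of the 16 probe sets had an adjusted p of limma under 0.05, 4 lower (TLE1 MmuSTS.4593.1.S1_at, TLE3 MmugDNA.1429.1.S1_at and MmugDNA.20927.1.S1_at, and HES6) and 1 higher (RBPJ MmugDNA.14460.1.S1_at). Of all 26352 probe sets 8.0% passed there, 6.64% higher and 1.35% lower. In peer minus maternal 2 members passed, TLE3 MmugDNA.20927.1.S1_at and HES6, both lower, of a background of 0.353%, 0.311% higher and 0.0417% lower. That count was 6 without maternal array 1 and 0 without any other single array. It was also 0 after centring, after quantile normalization, with the 75th percentile filter, without maternal arrays 2 and 5 and with only the groups compared, and 4 with the title number or the 3' to 5' ratio as a covariate. Over all tested probe sets there were 93 calls in this contrast, 3484 without maternal array 1, and 1819 and 1478 with these covariates. They were 0 to 17 without any other single array and 0 to 15 in the other settings that gave 0 members. In surrogate-peer minus maternal 0 members passed, of a background of 0.00%, and 7 of 16 had an unadjusted p under 0.05, as did 5345 of all 26352 probe sets. There 2 passed after centring, quantile normalization or a mean-variance trend, and 6 without maternal array 1. Of all tested probe sets 33, 25 and 12 passed in those settings, and 2095 without maternal array 1. Nothing is read from these counts, since the members were chosen on these contrasts. The median log2 difference over the 16 was -0.15 in each of the 3 contrasts, against 0.007, 0.004 and 0.01 over all tested probe sets. Nothing is read from that distance either, since TLE3 and HES6, chosen for their differences in these contrasts, are among the 16.

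The groups did not overlap at 4 of 16 probe sets when peer and surrogate-peer arrays were pooled, 3 lower and 1 higher, where 2.87% of all tested probe sets were separated. Peer and maternal arrays were separated at 5 (background 9.48%) and surrogate-peer and maternal arrays at 4 (background 5.44%). These comparisons share their 5 maternal arrays. TLE3 MmugDNA.20927.1.S1_at and HES6, which chose the group, are among the separated probe sets. Nothing is read from these counts either, since the members were chosen on the contrasts with maternal animals.

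Leaving out maternal arrays 2 and 5, which had the high monocyte score, made 4 of the 5 differences past the threshold smaller and 1 larger. Without both, TLE3 MmugDNA.20927.1.S1_at differed by -0.63 (-0.73 with them) between the averaged peer and surrogate-peer means and maternal, HES6 by -0.51 (-0.55), TLE1 MmuSTS.4593.1.S1_at by -0.67 (-0.86), and RBPJ MmugDNA.14460.1.S1_at by 0.30 (0.43), while TLE3 MmugDNA.1429.1.S1_at differed by -0.42 (-0.38). The number of members past the threshold was then 1. It was 2 without peer array 1, maternal array 4 or maternal array 5, 3 without surrogate-peer array 3, and 7 without maternal array 1. Over all tested probe sets the calls moved as well, from 2107 with all arrays to 37 without maternal arrays 2 and 5. They were 309, 30 and 60 without peer array 1, maternal array 4 and maternal array 5. Without surrogate-peer array 3 they were 474, and without maternal array 1 they were 4823. With the 3' to 5' ratio as a covariate the differences were -0.82 for TLE3, -0.55 for HES6, -1.10 for TLE1 and 0.66 for RBPJ at the same probe sets, and -0.29 for TLE3 MmugDNA.1429.1.S1_at, so that 3 members were past the threshold on the lower side in place of 4. Over all tested probe sets that fit gave 1632 calls. The parts of RNA quality and cell mixture in these differences were not tested.

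The comparison of surrogate-peer with peer animals did not itself choose the members and was tested. It is the difference between the contrasts with maternal animals that chose them, so it is not independent of that choice. No probe set passed in it among all those tested, so a lack of calls is not particular to the members. At 0 of the 16 probe sets did limma find a difference, with 0 at an unadjusted p under 0.05, against a background of 0.00% by adjusted p and 483 of 26352 probe sets at an unadjusted p under 0.05. All 16 adjusted p were 1.0. The groups overlapped at every member, where 1.74% of all tested probe sets were separated. The largest negative differences were in TLE1, -0.27 (95% interval -0.77 to 0.23) at MmuSTS.4593.1.S1_at and -0.21 (-0.59 to 0.16) at MmugDNA.36602.1.S1_at, and in TLE3 MmugDNA.20927.1.S1_at, -0.22 (-0.48 to 0.05). Single arrays moved the TLE1 values: they were -0.14 and -0.05 without surrogate-peer array 1 and -0.43 and -0.33 without surrogate-peer array 2, while TLE3 gave -0.27 and -0.21 without these arrays.

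HES1 had the largest positive difference between surrogate-peer and peer animals, 0.21 (95% interval -0.04 to 0.45), followed by RBPJ MmugDNA.17385.1.S1_at with 0.17 (-0.29 to 0.63). Leaving out 1 peer or surrogate-peer array gave 0.12 to 0.28 for HES1, and the RBPJ value was 0.04 without surrogate-peer array 3 and -0.14 with the title number as a covariate. For HES6 the difference was -0.07 (-0.28 to 0.13). With 4 arrays in each group these intervals leave room for differences of either sign at every one of the members named here. In order of level, TLE3 MmugDNA.20927.1.S1_at, both tested TLE1 probe sets and HES6 ran surrogate-peer, peer, maternal from low to high, and HES1 and HES4 ran peer, surrogate-peer, maternal, but the peer and surrogate-peer neighbours did not differ beyond their spread.

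**Figure D3:**
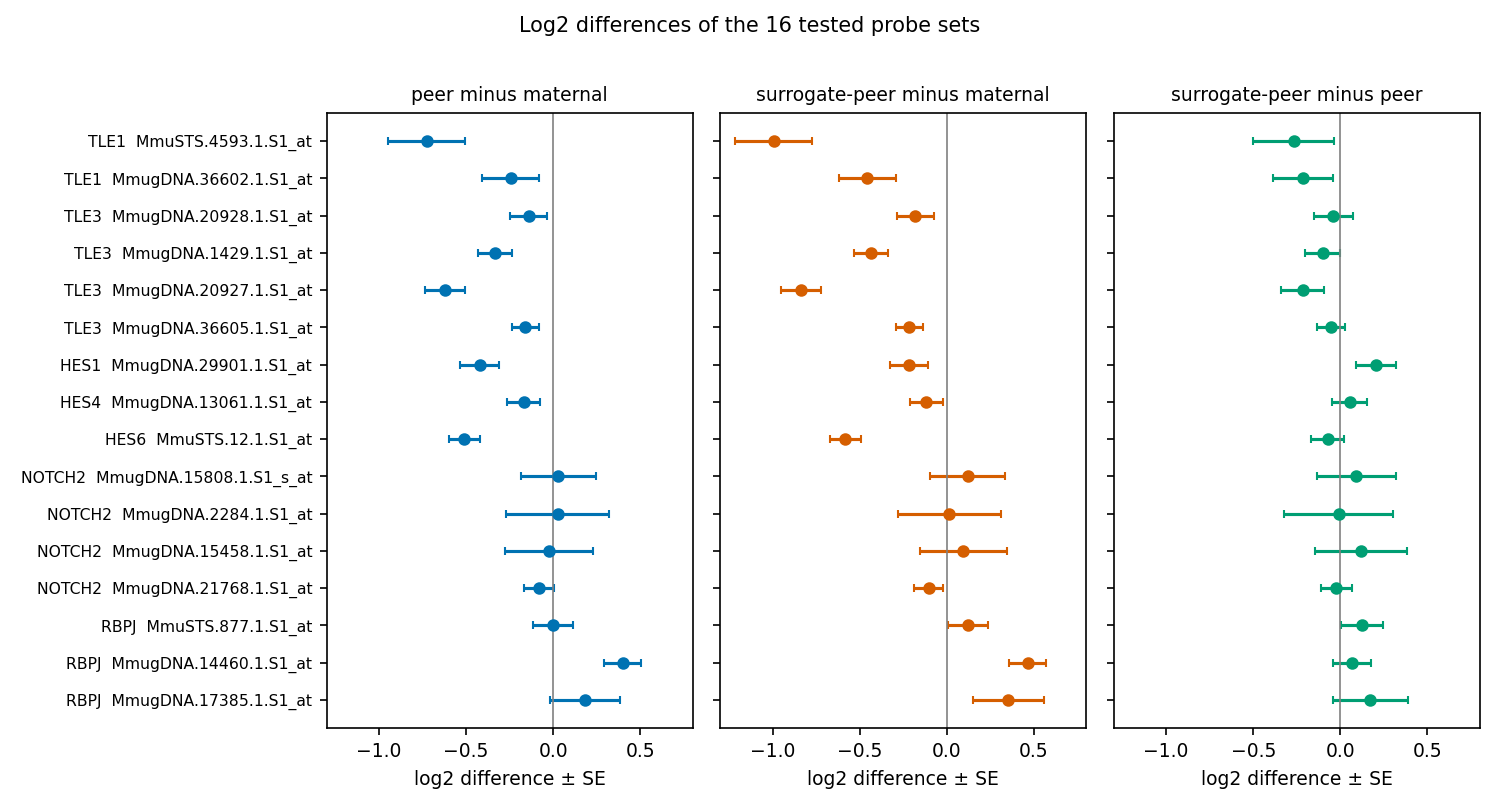
Log2 differences with standard errors of the 16 tested probe sets in peer minus maternal, surrogate-peer minus maternal and surrogate-peer minus peer. TLE1, TLE3, HES1, HES4 and HES6 lie below 0 in both comparisons with maternal animals, RBPJ MmugDNA.14460.1.S1_at lies at 0.40 and 0.46, and surrogate-peer minus peer values run from -0.27 to 0.21.

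Members of different genes were compared from animal to animal at their brightest probe sets only, with group means removed. Over 21 pairs of the 7 genes, each at its brightest probe set, r ran from -0.45 to 0.54 and 0 passed after adjustment. With 13 arrays this does not show that the genes vary apart. TLE3 MmugDNA.20927.1.S1_at and RBPJ MmugDNA.14460.1.S1_at, which separated the groups, were not among these pairs. For TLE3 MmugDNA.20928.1.S1_at and HES6 r was 0.10 (permutation p = 0.751, adjusted p = 0.877) and rho 0.26 (permutation p = 0.384, adjusted p = 0.598).

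The genes whose residual pattern was most like TLE3 MmugDNA.20927.1.S1_at, of 8985 genes compared over the 13 arrays, were DAPP1 (r 0.90, rho 0.77), PIDD1 (r 0.89, rho 0.76), MPO (r 0.88, rho 0.74), DHX34 (r 0.88, rho 0.85) and TCF7L2 (r 0.86, rho 0.82). Being the highest of many, these values are descriptions. Without maternal arrays 1 and 5, the lowest and highest maternal arrays for TLE3, r was 0.54 to 0.73. TCF7L2, a TCF factor that TLE proteins bind, had a difference of -0.57 ± 0.20 at that probe set between the averaged peer and surrogate-peer means and maternal (limma, adjusted p = 0.0918). The genes most like HES6 were ZNF347 (r 0.85, rho 0.84), CD33, a sialic acid receptor of myeloid cells (r 0.84, rho 0.87), GET4 (r 0.81, rho 0.67), METTL13 (r 0.79, rho 0.84) and RNF215 (r 0.79, rho 0.78), with r of 0.63 to 0.85 without peer arrays 2 and 3.

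The rest of the pathway was read from a list of 70 genes, of which 56 had a probe set and 51 were tested at their brightest one. In the averaged peer and surrogate-peer animals against maternal animals, 5 rose and 1 fell (limma, adjusted over all tested probe sets), 11.8% of the 51 beside the background of 8.0%. The list was chosen with earlier results of these data known and takes brightest probe sets, so nothing is read from that share. The median difference over the 51 was 0.04. In peer minus maternal 1 rose (background 0.353%) and in surrogate-peer minus maternal 0 passed (background 0.00%), with 16 of 51 at an unadjusted p under 0.05, beside 5345 of all 26352 probe sets.

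Of the Mastermind coactivators, which complete the active complex with cleaved Notch and RBPJ, MAML2 and MAML3 rose. MAML3 read 9.29, 9.28, 9.34 and 9.35 in peer and 9.20, 9.47, 9.15 and 9.34 in surrogate-peer arrays, against 9.15, 8.93, 8.77, 8.98 and 8.79 in maternal arrays, with surrogate-peer array 3 just below the highest maternal array. The difference was 0.38 ± 0.08 (limma, adjusted p = 0.0245). MAML2 read 10.40, 10.50, 10.38 and 10.39 in peer arrays, above all others, then 10.08, 9.88, 10.21 and 10.18 in surrogate-peer arrays and 9.98, 9.47, 9.80, 10.004 and 9.42 in maternal arrays. It rose by 0.52 ± 0.11 in the averaged contrast (limma, adjusted p = 0.0246) and by 0.68 ± 0.13 in peer minus maternal (limma, adjusted p = 0.0486). MAML1 had 0.19 ± 0.07 and did not pass, and the second probe sets of MAML2 and MAML3 gave 0.23 and 0.05. All 5 tested coactivator genes, with SNW1 and EP300, had positive differences, of 0.15 to 0.52. They stayed positive after centring (0.09 to 0.45) and after quantile normalization (0.12 to 0.45). Of all calls in this contrast 83.1% were higher as deposited, 56.7% after centring and 65.8% after quantile normalization. Whether the shared sign of these bright genes goes with their brightness was not tested.

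MAML3 was called in 10 of 13 fits that left out 1 array, and lost without peer array 1, maternal array 4 or maternal array 5, where its difference was 0.34 to 0.43 over all 13. MAML2 was called in 9 of 13 and lost without these 3 arrays or surrogate-peer array 3. In peer minus maternal, MAML2 was called in 1 of 13, the fit without maternal array 1. Without maternal arrays 2 and 5 the differences were 0.34 for MAML3 and 0.32 for MAML2.

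MYC, a gene for a growth-promoting transcription factor switched on by Notch in T cell precursors and by many other signals, rose by 0.83 ± 0.21 (limma, adjusted p = 0.0355). It read 11.02, 11.04, 11.03 and 11.41 in peer, 11.25, 10.85, 11.04 and 10.84 in surrogate-peer, and 10.94, 9.84, 10.45, 10.47 and 9.47 in maternal arrays. The lowest values were on maternal arrays 2 and 5, and without them the difference was 0.44. Its call held in 3 of 13 fits without 1 array, those without maternal array 1, maternal array 3 or surrogate-peer array 2. Of the other targets, GATA3 had 0.43 ± 0.18, CDKN1A -0.25 ± 0.19, CCND1 -0.18 ± 0.16 and BCL2 -0.03 ± 0.08, and none of these 4 passed.

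Among corepressor partners HDAC2, a histone deacetylase, rose by 0.30 ± 0.08 (limma, adjusted p = 0.0391) and by 0.46 at its second probe set. The call at the brightest probe set held in 2 of 13 fits without 1 array, those without maternal array 1 or surrogate-peer array 4. NCOR1, which joins RBPJ in repression, had 0.25 ± 0.09, SPEN 0.11 ± 0.11, SIN3A 0.12 ± 0.16 and HDAC1 0.04 ± 0.06, and none of these passed. Of the 9 corepressor partners 8 were positive, but only 5 after centring, a setting that moved the median of all tested probe sets to -0.05. The other TLE genes had small values, 0.06 for TLE2 and 0.13 for TLE5, a short family member, and that of TLE2 vanished when arrays were centred.

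Of the DNA-binding factors that use TLE proteins, PRDM1, the repressor that drives plasma cell and effector T cell differentiation, fell by 0.73 on the log2 scale (SE 0.19; limma, adjusted p = 0.0401) and by 0.89 at its second probe set. Its arrays read 9.04, 8.99, 9.60 and 8.34 in peer and 8.998, 8.68, 8.93 and 8.78 in surrogate-peer animals, against 9.84, 9.25, 9.32, 9.96 and 9.90 in maternal animals. Peer array 3 lay among the maternal values. The call held in 4 of 13 fits without 1 array, those without peer array 3 or maternal arrays 1, 2 or 3. RUNX1 rose by 0.47 ± 0.12 at its brightest probe set (limma, adjusted p = 0.0377), with all 8 peer and surrogate-peer arrays at 9.13 to 9.30 and maternal arrays at 8.28 to 9.11, while its other 3 tested probe sets gave -0.41, -0.17 and -0.17. Its call held in 2 of 13 fits, those without maternal array 1 or 3. TCF7 had 0.63 ± 0.20 and TCF7L2 -0.79 ± 0.25, and neither passed. The T cell marker score was -0.06 to 0.17 in peer, -0.03 to 0.40 in surrogate-peer and -0.40 to 0.03 in maternal arrays, and its part in these differences, like that of the cytotoxic score, was not tested.

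Ligands, receptors and processing enzymes gave 0 calls by limma. All 5 ligand genes had negative differences. They were -0.30 ± 0.12 for JAG1, -0.22 ± 0.12 for JAG2, and -0.02 to -0.10 for the Delta genes DLL1, DLL3 and DLL4. Centring lowered all averaged differences alike, and quantile normalization moved the median of all tested probe sets to -0.03. That all 5 stayed negative there is therefore no check of their sign. In peer minus maternal, DLL4 was 0.016 as deposited. NOTCH4 had -0.59 ± 0.21 and NOTCH3 -0.05 ± 0.06. ADAM10, the protease that makes the first cut of bound Notch, had 0.32 ± 0.09 (limma, adjusted p = 0.0501) at its brightest probe set and passed at the dimmest of its 3 probe sets, with 0.49. FURIN, which cuts the receptor on its way to the surface, had -0.49 ± 0.17. Among genes of receptor turnover 5 of 7 were negative, with DTX2 at -0.27 ± 0.09 and NUMB at -0.12 ± 0.24, and among the other HES and HEY genes HES2 had -0.20 ± 0.09 and HEYL 0.10 ± 0.07.

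Surrogate-peer and peer animals were not told apart in the rest of the pathway either. Limma called 0 of 51 genes (background 0.00%), with 1 at an unadjusted p under 0.05, MAML2, which had -0.33 ± 0.14 and whose 4 surrogate-peer arrays all lay below the peer arrays. The next smallest p were those of NOTCH3 (0.15 ± 0.07), NOTCH4 (0.47 ± 0.26), JAG1 (-0.23 ± 0.15) and HES7 (0.16 ± 0.12), all with an adjusted p of 1.0. In surrogate-peer minus maternal, the smallest p were those of MAML3 (0.36 ± 0.09), PRDM1 (-0.81 ± 0.22), RUNX1 (0.47 ± 0.14), ADAM10 (0.34 ± 0.11) and MYC (0.76 ± 0.24), with adjusted p of 0.0963 to 0.128.

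**Figure D4:**
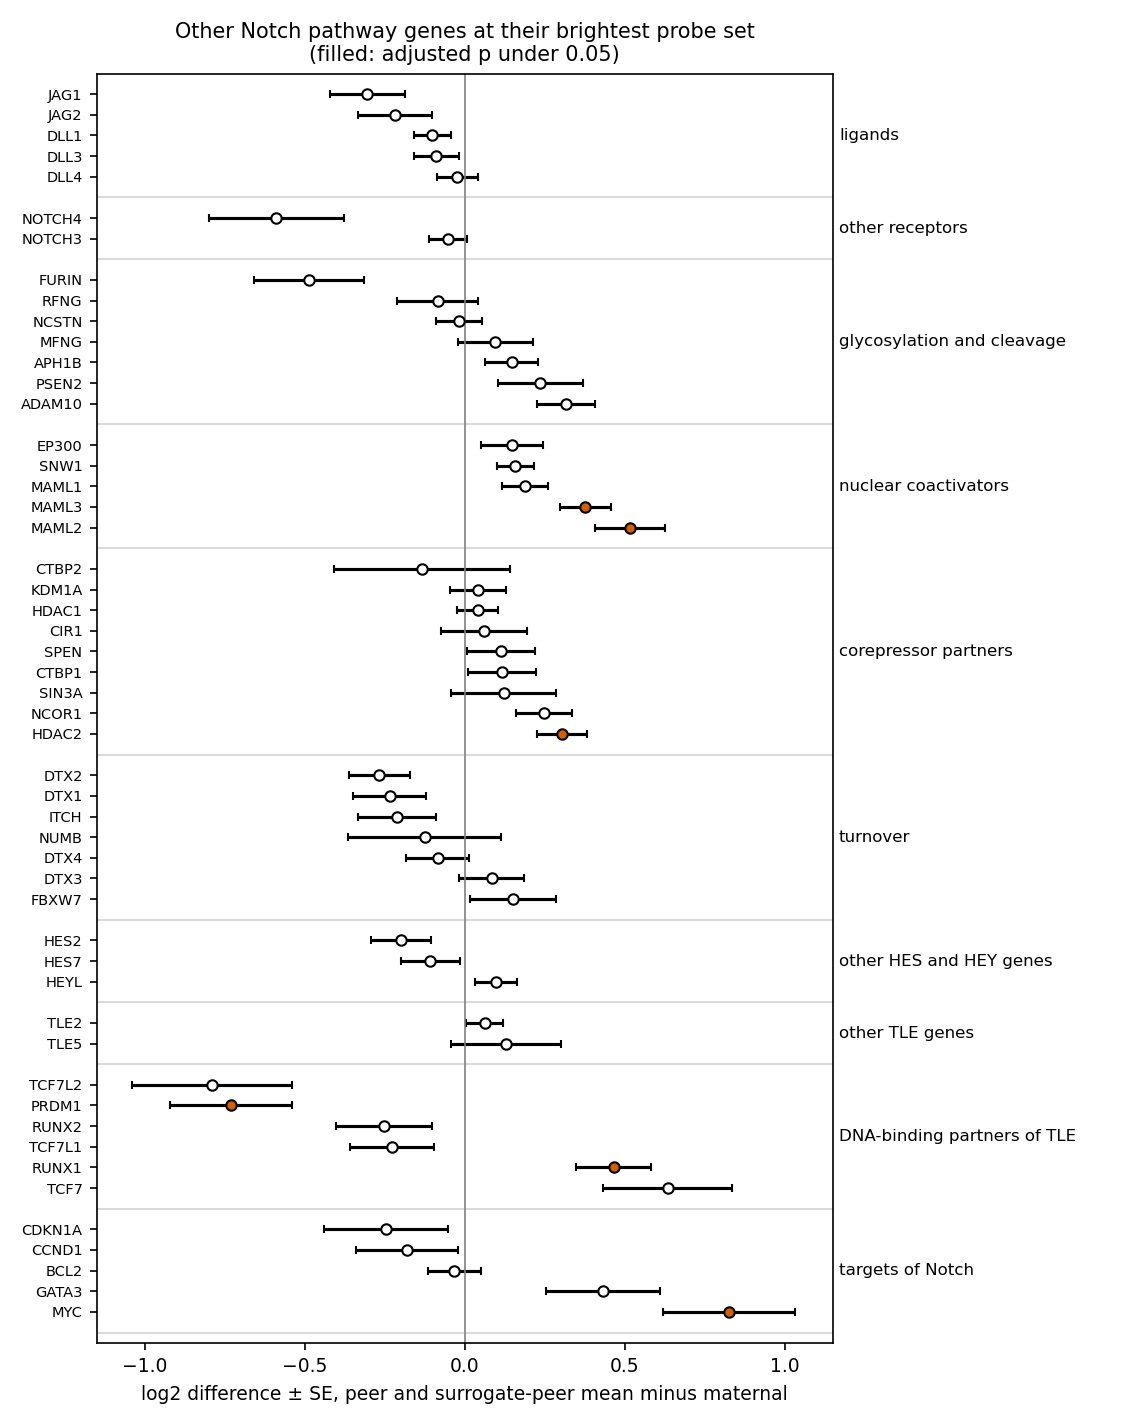
Log2 differences with standard errors, averaged peer and surrogate-peer means minus maternal, of 51 other Notch pathway genes at their brightest probe set, grouped by role. Filled points (adjusted p of limma under 0.05) are MAML2, MAML3, HDAC2, RUNX1 and MYC above 0 and PRDM1 below 0, and the 5 ligands lie below 0 without passing.

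**Figure D5:**
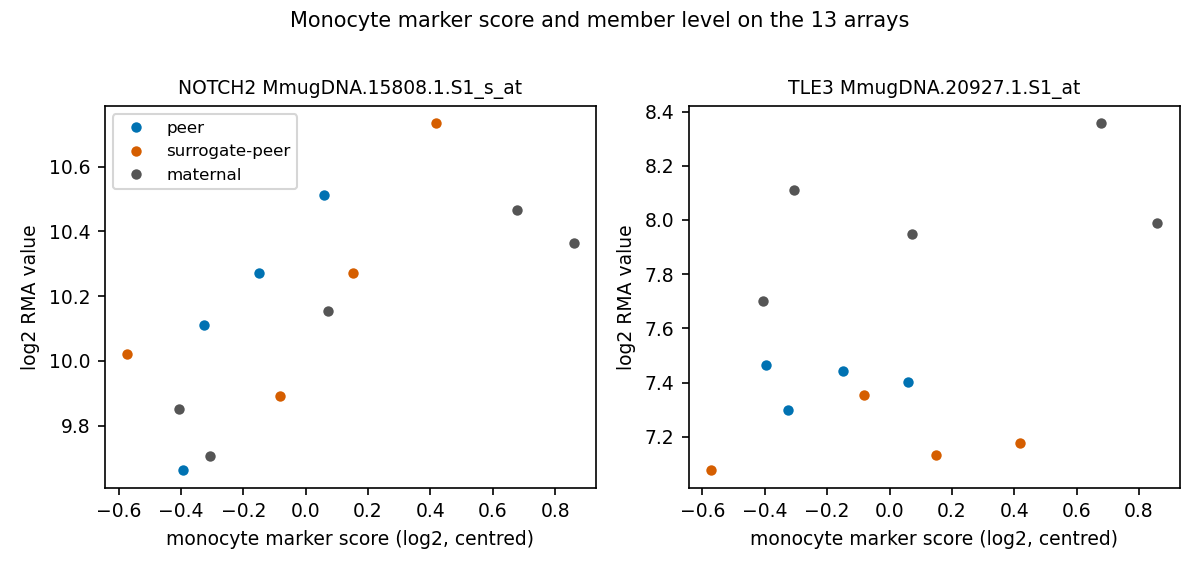
Log2 RMA values of NOTCH2 MmugDNA.15808.1.S1_s_at (left) and TLE3 MmugDNA.20927.1.S1_at (right) against the monocyte marker score on the 13 arrays, coloured by group. NOTCH2 is mostly higher at higher scores. TLE3 values are 7.70 to 8.36 in maternal arrays and 7.08 to 7.47 in peer and surrogate-peer arrays. Maternal arrays 2 and 5 have scores of 0.86 and 0.68, where no peer or surrogate-peer array lies (highest 0.42).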

How the data were processed

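Log2 expression values per probe set were deposited by the authors, who made them with RMA, per the submitters' processing notes; no source used here gives its version, its settings or whether the 13 arrays were normalized together. Arrays have no read depth, so their number limits the precision. Of 52865 probe sets, 158 controls were left out. The annotation pairs 24956 of the rest with 1 symbol, 361 with several and 27390 with none. Probe sets whose mean exceeded the median of means entered 1 two-sided fit over 13 arrays (lmFit and eBayes of limma 3.58.1, run in R 4.3.3, Benjamini-Hochberg, threshold 0.05). The script was tested on simulated data. Correlations used 100000 permutations within groups, two-sided.

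The members, the list of 70 genes, the marker lists and the alternatives were chosen with earlier results of these data known. All member probe sets are described. From the list, up to 12 genes past the threshold by smallest p were to be named, otherwise the 5 smallest. For TLE3 and HES6 the 5 genes with the highest residual r were named. Other list genes are given by role, chosen after their values were seen. Replicates are numbered in accession order. Alternatives changed the filter, scaling, array weights, the prior, covariates and the arrays used.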

Additional observations from a re-analysis of the deposited data

Results flagged for a closer look

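RBPJ MmugDNA.14460.1.S1_at on peer array 4 was 10.24 (10.241 as deposited), while the other 3 peer arrays were within 10.452 and 10.46. The gap to the nearest other array made up 0.963 of the group's range, above Dixon's critical value of 0.829 for 4 samples. It was the 1 value that stood out of 54 groups examined, where chance gives about 2.7. The array still lay above all 5 maternal arrays.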

How the results depend on the processing

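The number of calls depended on single arrays, both in the list of other Notch pathway genes and over all tested probe sets. In the averaged peer and surrogate-peer animals against maternal animals, 6 genes were called; leaving out 1 array gave 0 to 15, with 0 without peer array 1, maternal array 4 or maternal array 5 and 15 without maternal array 1. Quantile normalization gave 3 and leaving out maternal arrays 2 and 5 gave 0. In peer minus maternal, 1 was called; 0 were called without a filter, with the 75th percentile filter, after centring, after quantile normalization, with a mean-variance trend, with only the groups compared and without maternal arrays 2 and 5, and 4 with array weights, 4 with the title number and 5 with the 3' to 5' ratio as covariate, while leaving out 1 array gave 0 to 10. In surrogate-peer minus maternal the count of 0 became 0 to 6 without 1 array, with 6 without maternal array 1. In surrogate-peer minus peer the count was 0 for the list and for the members under every alternative run. For these changes the cause was not tested. Over all tested probe sets there were 2107 calls in the averaged contrast, 1331 after quantile normalization and 37 without maternal arrays 2 and 5. Leaving out 1 array gave 30 (maternal array 4) to 4823 (maternal array 1). Peer minus maternal had 93 such calls, 1187 with array weights, 1819 with the title number and 1478 with the 3' to 5' ratio. Without 1 array it had 0 to 3484, and surrogate-peer minus maternal had 0 to 2095. With all arrays, 83.1% of calls in the averaged contrast were higher as deposited, 56.7% after centring and 65.8% after quantile normalization. No paired analysis was possible because the replicate numbers follow accession order and pair no animals.

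For the log2 differences of the 16 member probe sets, 1413 values under the alternatives moved by less than the spread between replicates and 15 by more, 12 of them with a covariate for the 3' to 5' ratio, in NOTCH2 and RBPJ. There NOTCH2 MmugDNA.2284.1.S1_at gave -0.50 in the averaged contrast, against 0.02 without the covariate. TLE3 MmugDNA.20927.1.S1_at ranged from -0.82 to -0.63 and HES6 from -0.61 to -0.51 over alternatives in the averaged contrast.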
